A study of Mus musculus with 48 samples.

Results

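Chemokines of the CXC and CX3C families were followed as 8 genes, Cxcl10, Cxcl9, Cxcl16, Cxcl1, Cxcl12, Cxcl13, Cxcl14 and Cx3cl1, out of 22911 genes that could be named on the array. They were chosen by gene symbol with earlier results of these data known, and 11 probes carried a RefSeq accession of one of them. In the brain of APP/PS1 mice Cxcl10 was higher than in WT mice in the cortex and in the hippocampus, on H2O and on MSX-3, and Cxcl16 was higher in the cortex. Cxcl12, Cxcl14 and Cx3cl1 passed the test in no comparison of genotypes, and Cxcl9, Cxcl1 and Cxcl13 were too dim to be tested in any comparison.

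Chemokines are small secreted proteins that steer the migration of cells through G protein-coupled receptors, and the letters C and X in their names describe the spacing of conserved cysteines. Some, such as Cxcl9 and Cxcl10, are switched on by interferons and attract T cells through Cxcr3. Others, such as Cxcl1, attract neutrophils through Cxcr2, and Cxcl12 and Cxcl14 are produced constitutively in many organs. Cx3cl1 and Cxcl16 are anchored in the membrane and can be shed by proteases, and in the brain Cx3cl1 is known as a neuronal ligand of the microglial receptor Cx3cr1.

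APP/PS1 mice were heterozygous APPswe/PS1dE9 males on a C57Bl6/J background, which carry the transgenes of this Alzheimer's disease model driven by sequences of the prion protein gene Prnp, and WT mice were littermates without the transgenes. Mice of both genotypes drank plain water (H2O) or water with MSX-3 at 0.3 g/L, MSX-3 being a prodrug of the adenosine A2AR antagonist MSX-2. Treatment began at 3 months of age per the labels and the methods (4 months per the series text) and ended at 9 to 10 months. Cortex and hippocampus of the same 24 mice were hybridised on 48 one-colour arrays, 6 for every combination of tissue, genotype and agent, which makes 8 groups. All groups share the background strain, the male sex and the long dosing period, and whole tissue was extracted, so that fewer cells of a type and less RNA per cell cannot be told apart in any value that follows.

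Feature Extraction could not place the grid on 2 cortex arrays (mouse 310 of WT H2O and mouse 298 of WT MSX-3), and leaving these out leaves 5 arrays in each cortex WT group. On the 46 readable arrays between 55.8% and 75.5% of the spots were well above background. The labels held up against the genes that define them. Prnp, from which the transgene vector is derived, was higher on every APP/PS1 array than on any WT array of the same tissue, the lowest APP/PS1 and the highest WT level being 7.09 and 5.37 in the cortex and 7 and 5.6 in the hippocampus. The cortical genes Cux2 and Lamp5 and the hippocampal genes Prox1, Zbtb20, C1ql2 and Spink8 separated all arrays by tissue. The arrays lie on 7 slides scanned on 2 days, and genotype was unevenly spread over both. In the hippocampus all 6 APP/PS1 H2O arrays but 2 of the 6 WT H2O arrays were scanned on the first day. Among readable cortex arrays on H2O only slide 5 held both genotypes, with 2 APP/PS1 arrays and 1 WT array. In the cortex on MSX-3 no slide held both, so that genotype and slide cannot be told apart there. Levels are given as log2 of the signal minus log2 of the 75th percentile of the array, so that 0 is the brightness of that percentile, and levels of different probes are not compared.

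The sequences upstream of Cxcl10, Cxcl9 and Cxcl1 are shown because these 3 genes lie on 1 chromosome, are known as inducible genes and differed in whether they could be detected. Each runs 5′ to 3′ on the strand of the gene, from 250 bases before the start of the transcript to 50 bases from it, after RefSeq on GRCm38.p6. Cxcl10 is at chr5:92348840-92349139 and Cxcl9 at chr5:92328030-92328329, both on the minus strand, and Cxcl1 is at chr5:90890995-90891294 on the plus strand. Capitals mark letters that match, on either strand, an interferon-stimulated response element (GAAANNGAAA), a gamma-activated site (TTCNNNGAA) or an NF-kB site (GGGANNTNCC).
Cxcl10: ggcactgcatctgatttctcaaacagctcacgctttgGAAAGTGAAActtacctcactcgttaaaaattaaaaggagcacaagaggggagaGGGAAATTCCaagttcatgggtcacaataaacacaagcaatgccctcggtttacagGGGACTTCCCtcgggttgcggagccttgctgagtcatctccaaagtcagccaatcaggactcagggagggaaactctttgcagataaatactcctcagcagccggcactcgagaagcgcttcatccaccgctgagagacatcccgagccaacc
Cxcl9: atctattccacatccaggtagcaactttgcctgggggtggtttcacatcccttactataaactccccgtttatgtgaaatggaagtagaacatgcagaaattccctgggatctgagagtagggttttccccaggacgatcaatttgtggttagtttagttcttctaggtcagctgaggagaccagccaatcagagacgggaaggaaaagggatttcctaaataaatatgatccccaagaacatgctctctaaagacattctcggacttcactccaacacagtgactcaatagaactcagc
Cxcl1: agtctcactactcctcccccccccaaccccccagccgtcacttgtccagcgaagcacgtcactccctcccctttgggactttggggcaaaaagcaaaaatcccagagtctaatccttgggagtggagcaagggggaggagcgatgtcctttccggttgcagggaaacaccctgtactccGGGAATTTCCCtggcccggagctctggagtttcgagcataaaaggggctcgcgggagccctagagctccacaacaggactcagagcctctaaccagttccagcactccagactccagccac
The Cxcl10 window held the interferon element from -213 to -204 and NF-kB letters from -159 to -150 and from -103 to -94, the last of which matches on both strands. The Cxcl1 window held NF-kB letters from -71 to -62 on its own strand, overlapped by a match from -70 to -61 on the other strand. No match lay in the windows of Cxcl9, Cxcl12, Cxcl13 and Cx3cl1, and Cxcl14 held the interferon element from -172 to -163 and the gamma-activated letters from -191 to -183. Of all 32851 RefSeq promoter windows of this length, 3.44% held the interferon element, 8.3% the gamma-activated site and 4.01% the NF-kB site. Windows were found for 7 of the 8 genes, Cxcl16 being the gene without one. A match is a description of letters and was not tested as a binding site.

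Cxcl10, the ligand of Cxcr3 that interferons induce, had the largest genotype difference of the 5 tested members in each tissue and under each agent. In the cortex of the 5 WT H2O mice its levels were -5.4, -4.95, -5.82, -7 and -8.09, and only the first and second of these spots, from mice 258 and 308, were well above background. In the 6 APP/PS1 H2O mice the lowest level was -2.1, the median -1.49 and the highest -0.67, and all spots were well above background. The groups did not overlap, the gap between them being 2.85, and the WT levels were spread over a wider range than the APP/PS1 levels. The difference was 4.83 (SE 0.52, 95% confidence interval 3.69 to 5.98) on the log2 scale, or 28.5-fold, with a BH adjusted p of 0.000258 from limma. In this comparison 2 of the 5 tested members were called at an adjusted p under 0.05 and at least 1.5-fold, against 1.5% of all 37455 probes tested, and these 2 tested members were above all WT arrays, against 2.1% of all probes. The median difference of the 5 members was 0.06 and that of all probes -0.031. Cxcl10 met the minimum for a test, 4 spots of 1 group well above background, only through the APP/PS1 group. Both counts of members thus include a gene let in by the group where it was high.

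Of the 5 cortical WT spots of Cxcl10 on H2O, 3 were not well above background, and the size of the difference rests on them in part. With every WT spot raised to at least the dimmest signal well above background on its array, Cxcl10 was at least 17.4-fold higher in APP/PS1 mice. With normexp background correction and an offset of 50 the limma difference was 2.27 and remained called (adjusted p = 1.49e-05). With the slide as a block it was 4.02, resting on the slide that held both genotypes, and was not called. Both WT H2O spots well above background came from the first scan day. Within that day the Cxcl10 difference was 3.88 (5 APP/PS1 against 2 WT arrays), and within the second day it was 4.97 (1 against 3 arrays).

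Under MSX-3 the cortical levels of Cxcl10 in the 5 WT mice were -8.03, -5.76, -5.97, -3.61 and -4.87, with the last 2 spots, from mice 49 and 77, well above background. In the 6 APP/PS1 MSX-3 mice the levels ran from -2.03 over a median of -1.25 to -0.8. The groups again did not overlap, with a gap of 1.58. The difference was 4.34 (SE 0.6, 95% confidence interval 3.02 to 5.66), or 20.2-fold, with an adjusted p of 0.00162 (limma, BH), and it was 3.44 within the first scan day (6 against 3 arrays) and 2.23 with normexp. Since 3 of the 5 WT spots were not well above background, the bound reckoned as on H2O was at least 13.4-fold. Here, too, 2 of 5 tested members were called, against 1.51% of probes, and both were above all WT arrays, against 2.43% of probes. Cxcl10 again met the minimum for a test only through the APP/PS1 group.

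In the hippocampus Cxcl10 was well above background on all 24 arrays. WT H2O mice ran from -5.27 over -4.5 to -3.77 and APP/PS1 H2O mice from -3.08 over -1.89 to -1.3 (lowest, median and highest). The highest WT array was below the lowest APP/PS1 array by 0.69. The difference was 2.51 (SE 0.33, 95% confidence interval 1.8 to 3.22), or 5.71-fold, with an adjusted p of 0.00274 (limma, BH). Cxcl10 was the 1 member called of the 5 tested, against 0.406% of probes, and the 1 member above all WT arrays, against 0.776% of probes. With the scan day as a block the Cxcl10 difference was 2.37 (adjusted p = 0.133) and with the slide as a block 2.78 (adjusted p = 0.232), so that the size held and the call did not. With normexp it was 1.41.

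Under MSX-3 the hippocampal Cxcl10 levels ran from -4.89 over -4.04 to -3.78 in WT mice and from -2.85 over -2.53 to -1.89 in APP/PS1 mice. These groups were 0.93 apart. The difference was 1.66 (SE 0.2, 95% confidence interval 1.23 to 2.1), or 3.17-fold, with an adjusted p of 0.00183 (limma, BH). It was 1.49 within the first scan day (4 against 4 arrays, adjusted p = 0.101) and 2.01 within the second (2 against 2 arrays, adjusted p = 0.974). It was 0.87 with normexp and called, and with the slide as a block it was 1.51 and not called (adjusted p = 0.0659). Cxcl10 was again the 1 member of 5 called, against 0.323% of probes, and the 1 member above all WT arrays, against 0.593% of probes.

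**Figure D1:**
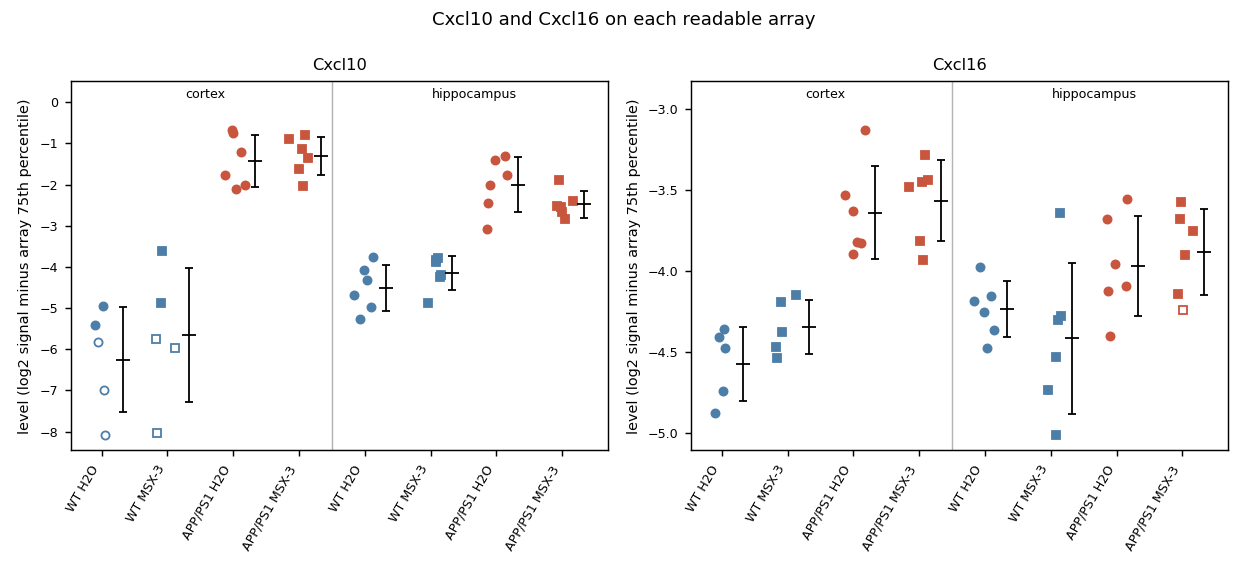
Log2 level (signal over the array's 75th percentile) of Cxcl10 and Cxcl16 on each readable array, by tissue, genotype and agent. Circles are H2O and squares MSX-3 mice, blue WT and red APP/PS1, filled symbols were well above background and open symbols were not, and black bars are means with SD. All APP/PS1 arrays lie above all WT arrays of the same tissue and agent for Cxcl10 and, in the cortex, for Cxcl16.

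Ordered by mean level, Cxcl10 stood at -1.31 ± 0.47 (SD, n = 6) in the APP/PS1 cortex on MSX-3, -1.42 ± 0.63 in the APP/PS1 cortex on H2O, -2 ± 0.67 in the APP/PS1 hippocampus on H2O and -2.48 ± 0.32 in the APP/PS1 hippocampus on MSX-3. The WT groups followed, with -4.14 ± 0.41 (hippocampus, MSX-3), -4.51 ± 0.57 (hippocampus, H2O), -5.65 ± 1.62 (cortex, MSX-3) and -6.25 ± 1.28 (cortex, H2O). In this order the arrays of neighbouring groups overlapped at every step except the one between the lowest APP/PS1 group and the highest WT group.

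The genotype difference of Cxcl10 was larger in the cortex than in the hippocampus by 2.32 in H2O mice (95% confidence interval 0.99 to 3.65, unadjusted p = 0.00156) and by 2.68 in MSX-3 mice (1.32 to 4.04), and neither passed after adjustment over all probes in limma (adjusted p = 0.259 and 0.158). In H2O mice it was 0.86 with normexp (adjusted p = 0.903) and was called under none of the alternatives. No member was called in these comparisons of tissues, against 0.241% of probes in H2O mice and 0.181% in MSX-3 mice. On each agent only 2 of the 5 cortical WT spots of Cxcl10 were well above background. The size of both Cxcl10 differences rests in part on the dimmer spots. Without the WT MSX-3 mouse 49, whose cortical Cxcl10 level was the highest of the WT mice, the Cxcl10 difference in MSX-3 mice was 3.34 and was called (adjusted p = 0.00907), and with normexp it was 1.35 and called (adjusted p = 0.00571), while under the other alternatives it was not called.

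Cxcl16, the transmembrane ligand of Cxcr6 that also acts as a scavenger receptor, was higher in the APP/PS1 cortex. WT H2O mice had cortical levels of -4.88, -4.74, -4.41, -4.36 and -4.48, and APP/PS1 H2O mice ran from -3.89 over -3.73 to -3.13. All 11 spots were well above background and the groups were 0.46 apart. The difference was 0.93 (SE 0.15, 95% confidence interval 0.6 to 1.26), or 1.91-fold, with an adjusted p of 0.00537 (limma, BH). A second Cxcl16 probe gave 1.24 and was called (adjusted p = 0.000425). With normexp the first probe gave 0.42 and was not called (adjusted p = 0.128).

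In the cortex of MSX-3 mice Cxcl16 levels were -4.53, -4.47, -4.15, -4.37 and -4.19 in WT mice and ran from -3.93 over -3.46 to -3.28 in APP/PS1 mice. The groups were 0.22 apart, and the difference was 0.78 (SE 0.13, 95% confidence interval 0.49 to 1.07), or 1.72-fold, with an adjusted p of 0.00718 (limma, BH). The second Cxcl16 probe gave 0.74, with overlapping groups, and was not called (adjusted p = 0.254), and with normexp the first probe gave 0.4, below 1.5-fold.

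In the hippocampus the genotypes overlapped for Cxcl16. The levels ran from -4.48 over -4.22 to -3.98 in WT H2O, from -4.4 over -4.02 to -3.55 in APP/PS1 H2O, from -5.01 over -4.42 to -3.64 in WT MSX-3 and from -4.24 over -3.83 to -3.58 in APP/PS1 MSX-3 mice. The Cxcl16 difference was 0.27 in H2O mice (95% confidence interval -0.04 to 0.57, adjusted p = 0.533) and 0.54 in MSX-3 mice (0.09 to 0.98, adjusted p = 0.908). The cortical minus the hippocampal difference was 0.67 in H2O mice (0.23 to 1.1, adjusted p = 0.524) and 0.24 in MSX-3 mice (adjusted p = 0.774), which does not show that the tissues differ for Cxcl16. On the second Cxcl16 probe the hippocampal difference was 0.19 in H2O mice and 0.77 in MSX-3 mice (0.2 to 1.34, adjusted p = 0.74, limma). Its cortical minus hippocampal difference was 1.05 in H2O mice (adjusted p = 0.222) and -0.02 in MSX-3 mice (adjusted p = 0.989). None of these was called.

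Some microglial markers and 1 of 5 astrocyte markers, Gfap, also differed by genotype. Of 6 microglial markers 3 were called higher in the APP/PS1 cortex on each agent, among them Aif1 (1.07 on H2O and 1.11 on MSX-3) and Csf1r (0.88 and 0.91). In the hippocampus, where Cxcl10 was called, none of the 6 was called in limma, and their median difference was 0.3 on H2O and 0.28 on MSX-3, against 0.67 in the cortex on either agent. The log2 of the summed microglial signal ran from 6.39 to 6.93 in the cortex of WT H2O and from 6.75 to 7.12 in that of APP/PS1 H2O mice. Gfap, the filament of reactive astrocytes, was called in the APP/PS1 cortex on H2O (2.7) and on MSX-3 (2.8). In the hippocampus Gfap was called on MSX-3 (0.8, adjusted p = 0.00129) and differed by 0.7 on H2O (adjusted p = 0.0609, limma). No other of the 5 astrocyte markers was called by genotype. Their median difference, Gfap included, was 0.15 on H2O and 0.23 on MSX-3 in the cortex. In the hippocampus it was 0.09 and 0.03. The T cell genes Cd2 and Cd8a were well above background on no cortex array of WT H2O mice and on 1 array each of APP/PS1 H2O mice. In other groups the order varied. In the cortex on MSX-3, Cd2 was well above background on 1 of 5 WT arrays and on no APP/PS1 array. In the hippocampus on H2O, Cd8a was so on 1 of 6 WT arrays and on no APP/PS1 array. In the hippocampus on MSX-3, Cd8a was so on 3 of 6 APP/PS1 arrays and on some WT array. Cd8a was well above background on no cortex array on MSX-3, and Cd2 on no hippocampal array. The summed signal of the 4 T cell markers overlapped between the WT H2O and APP/PS1 H2O cortex, from -0.29 to 0.12 and from -0.54 to 0.7. The part of any cell type in the values of Cxcl10 and Cxcl16 was not tested.

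Cxcl9, the other interferon-inducible ligand of Cxcr3 here, was well above background on 0 of 46 arrays, with group medians between -7.96 and -7.18. Cxcl13, the ligand of Cxcr5 that guides B cells, was well above background on 0 of 46 arrays as well, with medians between -7.72 and -6.87. In the cortex on H2O the APP/PS1 spots of Cxcl13 all lay above the WT spots, from -7.57 to -6.18 against -8.16 to -7.6, at a signal where none was well above background. These spots give only a bound, no fold is given, and the genes were not detectable at this signal rather than shown to be absent. Of the 4 B cell markers, Ms4a1 was never well above background, while the other 3 were on some array of every group.

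Cxcl1, which attracts neutrophils through Cxcr2, was well above background on 0 of the 22 cortex arrays and on 11 hippocampal arrays, 2 in WT H2O, where 1 spot was left out as an outlier and 5 remained, and 3 in each of the other groups. Hippocampal levels ran from -6.24 over -5.76 to -4.45 in WT H2O, from -6.24 over -5.19 to -3.9 in WT MSX-3, from -5.13 over -4.73 to -3.89 in APP/PS1 H2O and from -6.47 over -5.22 to -4.48 in APP/PS1 MSX-3 mice. All 4 groups overlapped. In WT H2O mice the mean level of Cxcl1 was -5.51 in the hippocampus, with 2 of 5 spots well above background. It was -6.61 in the cortex, where no spot was. The tissues overlapped, and no fold is given, since most spots on both sides were not well above background. No group had 4 or more spots of Cxcl1 well above background, the minimum for a test. None of the 3 neutrophil markers on the array was called by genotype.

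**Figure D2:**
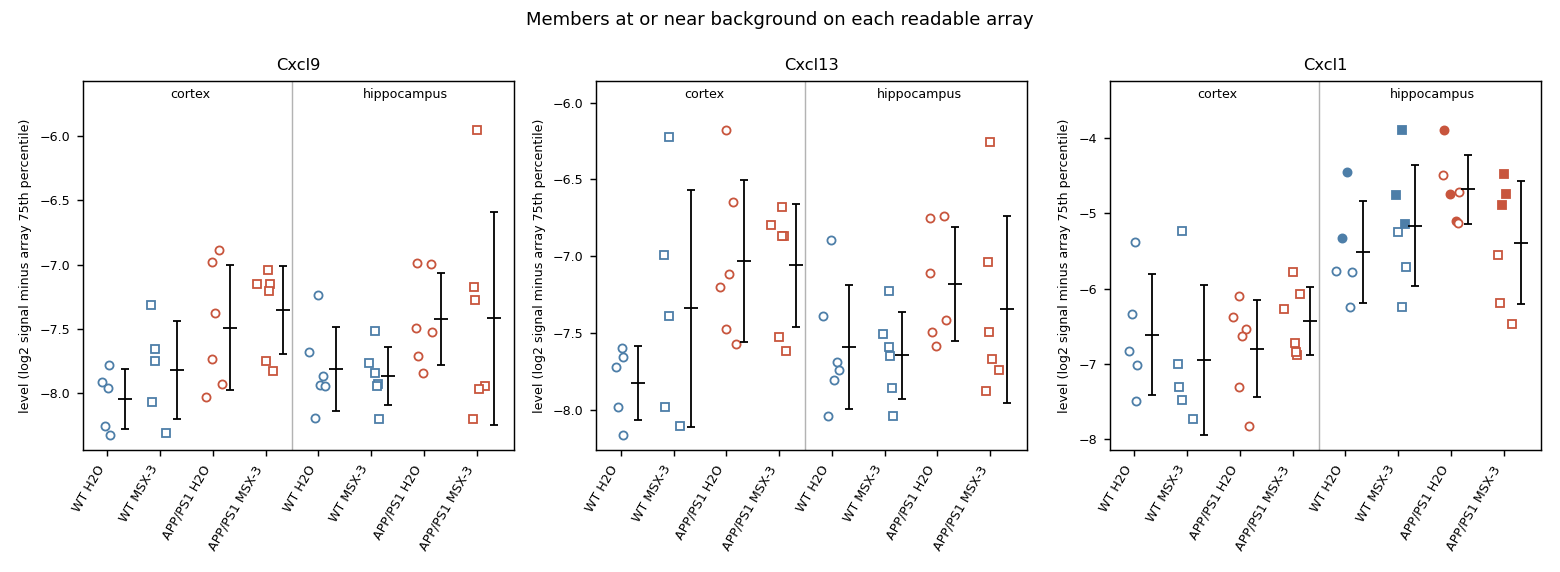
Log2 level of Cxcl9, Cxcl1 and Cxcl13 on each readable array, by tissue, genotype and agent, with the symbols of the plot of Cxcl10 and Cxcl16. Symbols are open where the spot was not well above background, which is the case for all spots of Cxcl9 and Cxcl13, while 11 hippocampal spots of Cxcl1 are filled.

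Cxcl12, the ligand of Cxcr4 and Ackr3, was well above background on all 46 arrays on both of its probes. The probe for NM_001012477 had group medians from 2.14 to 2.17 in the cortex and from 1.47 to 1.72 in the hippocampus. Genotype differences of Cxcl12 were 0.06 (95% confidence interval -0.21 to 0.33) and -0.18 (-0.58 to 0.23) in the cortex on H2O and MSX-3, and 0.19 (-0.06 to 0.43) and -0.38 (-0.91 to 0.16) in the hippocampus. None passed (adjusted p between 0.596 and 0.952), and the second probe, for NM_021704, gave values between -0.27 and -0.08, none called.

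Cxcl14, a chemokine of neurons and epithelia, had medians from 3.44 to 3.57 in the cortex and from 3.02 to 3.29 in the hippocampus. On its brighter probe the genotype differences were 0.04 and 0.04 in the cortex and 0.02 and -0.14 in the hippocampus on H2O and MSX-3, with 95% confidence intervals that stayed between -0.36 and 0.31. A second Cxcl14 probe was well above background on 14 of 46 arrays. It could be tested in 1 of the 4 comparisons of genotypes, the cortex on H2O, where it differed by -0.42 with a wider interval of -1.26 to 0.41 and was not called (adjusted p = 0.683, limma). Cx3cl1, the membrane-bound ligand of Cx3cr1, had medians from 5.91 to 6 in the cortex and from 5.32 to 5.45 in the hippocampus. Its genotype differences lay between -0.1 and 0.07, with intervals that stayed between -0.27 and 0.3, so that a change of Cx3cl1 mRNA as large as 1.5-fold lies outside all 4 intervals.

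**Figure D3:**
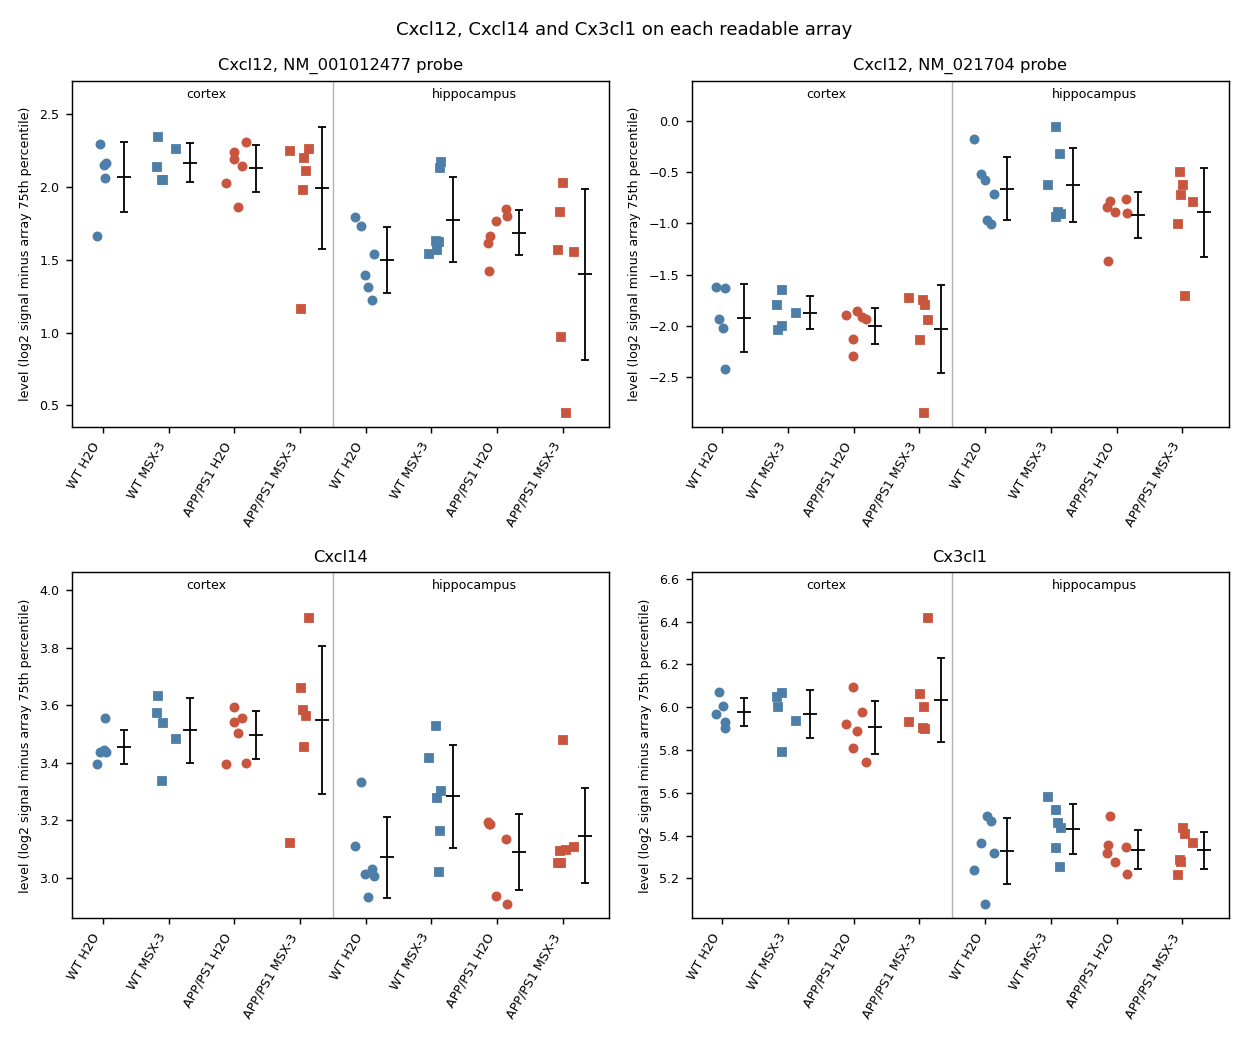
Log2 level of Cxcl12, Cxcl14 and Cx3cl1 on each readable array, by tissue, genotype and agent, with the symbols of the plot of Cxcl10 and Cxcl16. Genotypes and agents overlap in each tissue, and the cortex lies above the hippocampus for Cxcl14 and Cx3cl1 in WT H2O mice.

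MSX-3 against H2O, the comparison that asks for an effect of the A2AR antagonist, called no member. In limma 0 of 5 tested members were called in the APP/PS1 cortex, the APP/PS1 hippocampus and the WT hippocampus and 0 of 4 in the WT cortex, against 0% of all probes in each of the 4 comparisons, while 2086, 1425, 1898 and 3255 probes had an unadjusted p under 0.05 in that order. Cxcl10 differed by 0.11 in the APP/PS1 cortex (95% confidence interval -0.52 to 0.74) and by -0.48 in the APP/PS1 hippocampus (-1.08 to 0.13, unadjusted p = 0.113, adjusted p = 0.977). In the WT hippocampus Cxcl10 differed by 0.37 (-0.2 to 0.95, adjusted p = 1), and in the WT cortex it was not tested. A rise of Cxcl10 by 1.5-fold lies inside the interval in the APP/PS1 cortex, so these arrays could not show its absence. Cxcl16 differed by 0.07 and 0.09 in the APP/PS1 cortex and hippocampus and by 0.23 and -0.18 in the WT cortex and hippocampus (adjusted p from 0.576 to 1).

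The genotype difference under MSX-3 minus that on H2O was -0.49 for Cxcl10 in the cortex (95% confidence interval -2.26 to 1.28) and -0.85 in the hippocampus (-1.68 to -0.02, unadjusted p = 0.045, adjusted p = 0.89). No member was called in either tissue, against 0% of probes, and 1756 and 1852 probes had an unadjusted p under 0.05. The comparisons of genotypes and of agents share their arrays and are given side by side only.

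**Figure D4:**
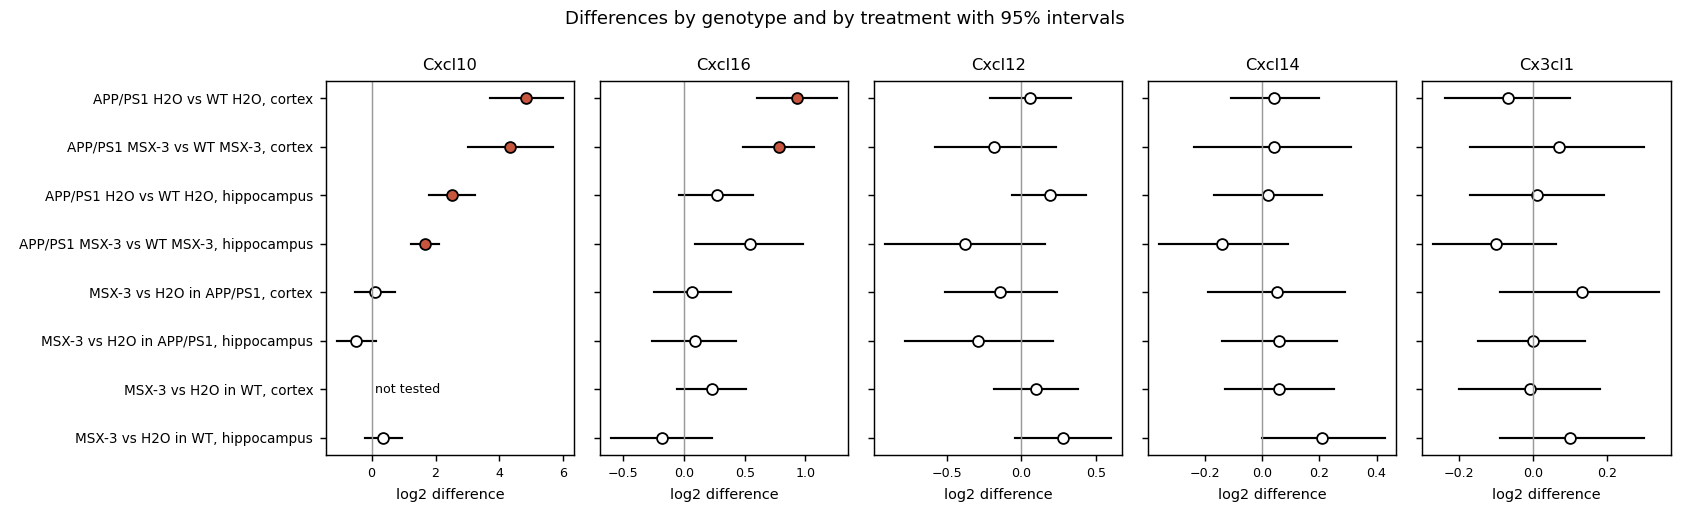
Log2 difference with its 95% confidence interval for the 5 tested members in the comparisons of genotype and of MSX-3 against H2O, from limma, with a scale of its own for each gene. Filled points were called at an adjusted p under 0.05 and at least 1.5-fold. Cxcl10 is called in all 4 comparisons of genotypes and Cxcl16 in the 2 cortical ones, and no point is called for MSX-3 against H2O.

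Between tissues, the WT H2O cortex and hippocampus were compared. Differences were common here, with 16% of all 38473 probes called, and the share of probes whose tissues did not overlap was not counted. Cx3cl1 was higher in the cortex, from 5.9 to 6.07 against 5.08 to 5.49, with a gap of 0.41. The difference was 0.65 (SE 0.09, 95% confidence interval 0.45 to 0.84), or 1.57-fold, with an adjusted p of 0.000202 (limma, BH). Cxcl14 was higher in the cortex by 0.38 (0.2 to 0.57, adjusted p = 0.00562), with no overlap, which at 1.3-fold is below the 1.5-fold minimum. Cxcl12 was higher in the cortex by 0.57 (0.26 to 0.88, adjusted p = 0.00978) on the NM_001012477 probe, 1.48-fold, and lower in the cortex by 1.26 on the NM_021704 probe (-1.66 to -0.86, adjusted p = 0.000268), where the tissues did not overlap. The difference on the NM_001012477 probe lay just under the 1.5-fold minimum and was called in 8 of 24 alternatives, the mouse as a block among them (0.62, adjusted p = 0.0135). The probes of Cxcl12 thus went in opposite directions, and the files do not tell which part of the Cxcl12 transcripts each one reads.

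Cxcl10 was lower in the WT H2O cortex than in the hippocampus by -1.74 (95% confidence interval -2.86 to -0.62, adjusted p = 0.0255, limma), with 4 of 5 cortical arrays below all hippocampal ones. With the cortical spots at their bound it was at least 2.04-fold higher in the hippocampus. The call was lost with the mouse as a block, which pairs the tissues (-1.89, adjusted p = 0.0736), and without mouse 318 (-1.88, adjusted p = 0.0575), 56 (-1.4, adjusted p = 0.118) or 71 (-1.19, adjusted p = 0.0788). With normexp the Cxcl10 difference was -0.4. Of the 5 members tested 2 were called, 1 in each direction, against 16% of all probes. Choroid plexus and meningeal genes moved with tissue: Kl was lower in the cortex by -4.44, Dcn by -1.91 and Lum by -1.29. The log2 of the summed choroid plexus signal of 3 markers ran from 0.23 to 7.64 in the hippocampus of WT H2O mice and from -2.18 to 1.57 in their cortex, and their part in the chemokine values was not tested.

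Of the other CXC ligands, 7 were on the array and 2 could be tested. Cxcl5, which attracts neutrophils through Cxcr2, was called in 3 of the 4 comparisons of genotypes. In the cortex Cxcl5 ran from -6.25 over -5.95 to -5.16 in WT H2O mice, with 1 of 5 spots well above background, and from -4.26 over -3.5 to -2.87 in APP/PS1 H2O mice. Of the 6 APP/PS1 spots 5 were well above background. As in the cortex on MSX-3, only the APP/PS1 group met the minimum for a test. The difference was 2.23 (SE 0.26), or 4.7-fold as measured, with an adjusted p of 0.00053 (limma, BH), and at least 4.27-fold with the WT spots at their bound. It was 1.69 in the hippocampus on H2O (adjusted p = 0.00776) and 1.96 in the cortex on MSX-3 (adjusted p = 0.0026), where 1 of 5 WT spots was well above background and the bound was at least 3.28-fold. With the slide as a block neither H2O call of Cxcl5 held (adjusted p = 0.14 and 0.588). Pf4, a platelet chemokine, was called in no comparison of genotypes, and Cxcl2, Cxcl3, Cxcl15, Cxcl17 and Ppbp were well above background on no array.

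Of 9 receptors, between 4 and 6 could be tested per comparison of genotypes, and 1 was called, in the cortex on both agents, Cx3cr1, the fractalkine receptor of microglia. In the cortex Cx3cr1 ran from 2.41 over 2.45 to 2.55 in WT H2O and from 3.25 over 3.31 to 3.57 in APP/PS1 H2O mice, without overlap. The difference was 0.89 (SE 0.08), or 1.85-fold (adjusted p = 5.51e-05, limma), and it was 0.89 on MSX-3 (adjusted p = 0.00365). In the hippocampus Cx3cr1 differed by 0.37 on H2O, 1.29-fold and thus under the minimum (adjusted p = 0.0467), and by 0.35 on MSX-3 (adjusted p = 0.366). Its ligand Cx3cl1 showed no such difference in the same arrays, as given above. Cxcr3, the receptor of Cxcl9 and Cxcl10, was well above background on 3 of 5 WT H2O and 4 of 6 APP/PS1 H2O cortex arrays and differed by 0.62 (adjusted p = 0.276). In the hippocampus on H2O, Cxcr3 was well above background on 3 of 6 WT arrays and on no APP/PS1 array. Cxcr6, the receptor of Cxcl16, differed by 0.22 in the cortex on H2O (adjusted p = 0.719). Cxcr4, the receptor of Cxcl12, was well above background on no cortex array and on 4 of 6 hippocampal arrays of WT H2O mice. With the cortical spots at their bound it was at least 1.85-fold brighter in that hippocampus. The limma test (adjusted p = 0.00111) compared the measured levels, with means of -4.87 in the hippocampus and -7.23 in the cortex. Only the hippocampus met the minimum for that test.

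Of 5 sheddases and peptidases, among them Adam10 and Adam17, which release Cx3cl1 and Cxcl16 from the membrane, 3 or 4 could be tested per comparison and none was called by genotype. Dpp4, which trims the amino terminus of Cxcl10 and Cxcl12, was well above background on no hippocampal array of WT H2O mice. With those spots at their bound it was at least 2.52-fold brighter in the WT H2O cortex. The limma test (adjusted p = 0.000119) compared the measured levels, with means of -4.19 in the cortex and -6.55 in the hippocampus. Only the cortex met the minimum for that test.

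Of 16 inducers in the interferon and NF-kB pathways, 14 could be tested in the cortex and 13 in the hippocampus. Called higher were 2 in the cortex and 1 in the hippocampus on H2O, and 2 in the cortex and none in the hippocampus on MSX-3. Irf7, an interferon-induced transcription factor, ran in the cortex from -1.2 over -0.76 to -0.64 in WT H2O and from 0.19 over 0.63 to 1.27 in APP/PS1 H2O mice. The Irf7 difference was 1.55 (SE 0.19), or 2.93-fold (adjusted p = 0.000545), and it was 1.28 in the hippocampus on H2O (adjusted p = 0.00521). Irf9, a subunit of the interferon-activated factor ISGF3, was 0.86 higher in the cortex on H2O (adjusted p = 0.000669). In the cortex on MSX-3, Irf7 was 0.92 higher (adjusted p = 0.029), and leaving out 1 mouse ended this call in 7 of 11 cases (mice 267, 283, 293, 304, 319, 49 and 77), with adjusted p up to 0.0946. With the slide or the scan day as a block the hippocampal call of Irf7 was lost (adjusted p = 0.232 and 0.153), and within the first scan day the cortical H2O calls of Irf7 and Irf9 were lost (adjusted p = 0.0822 and 0.101). The cytokine genes Ifng and Ifnb1 were too dim to be tested.

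**Figure D5:**
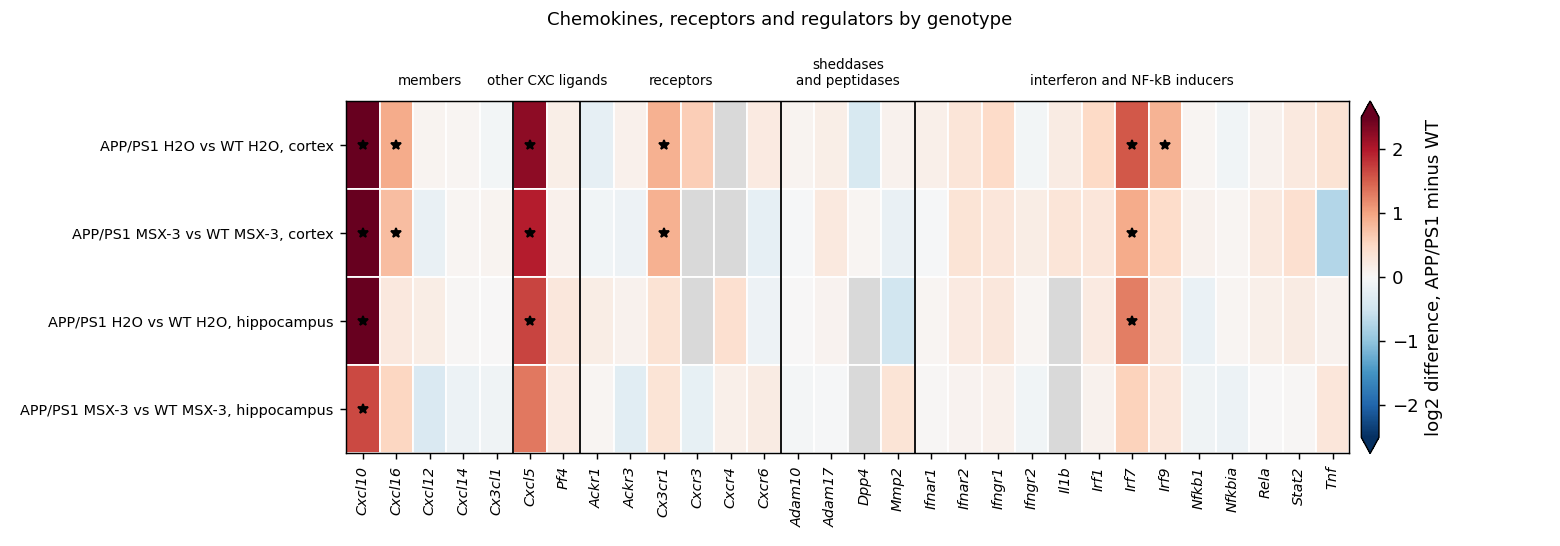
Log2 difference between APP/PS1 and WT mice for the members and for the other ligands, receptors, sheddases and inducers that could be tested and are reported, by tissue and agent, as colour on a scale centred at 0 that saturates at its ends. Cells with a star were called at an adjusted p under 0.05 and at least 1.5-fold in limma, and grey cells were not tested. Calls are found for Cxcl10, Cxcl16, Cxcl5, Cx3cr1, Irf7 and Irf9.

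Genes whose levels followed Cxcl10 most closely were sought among 17027 genes by the mean of Pearson's r over 22 cortex arrays and over 24 hippocampal arrays. They were Tlr2 (mean r 0.9), Oasl2 (0.896) and Prnp (0.896), and for Cxcl16 they were Scimp (0.786), Gm14625 (0.783) and Lair1 (0.783). These arrays share slides and hold both genotypes, and Prnp separates the genotypes without overlap. After removal of the group means the highest values were lower, with Trim67 (0.662) for Cxcl10 and Olfr1387 (0.725) for Cxcl16.

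In the 12 APP/PS1 mice the cortical level of a member was set against the hippocampal level of the same mouse for the 5 tested members. For Cxcl10 Pearson's r was -0.041 (permutation p = 0.897) and Spearman's rho 0.042 (p = 0.903), and r was -0.264 without the 2 farthest mice. For Cxcl12 r was 0.767 (permutation p = 0.0225, adjusted over the 5 relations 0.112) and rho 0.476 (p = 0.121). Within the 6 H2O and the 6 MSX-3 mice r was 0.776 and 0.756. Without mice 281 and 325 the r of Cxcl12 was 0.018, so that the relation rests on those mice. Cxcl16 (r 0.118), Cxcl14 (r -0.107) and Cx3cl1 (r 0.084) had permutation p from 0.71 to 0.803 and rho of 0.175, -0.049 and 0.343.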

How the data were processed

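RNA of cortex and hippocampus was labelled with Cy3 and hybridised on 48 Agilent arrays, and the scanner intensities deposited by the authors come from Agilent Feature Extraction 10.7.3.1 (per the labels), with background subtracted and no normalization between arrays. The deposited series matrix holds the same intensities. Here control spots and spots marked as outliers were left out, the log2 signal minus the array's 75th percentile was taken from the deposited intensities, and spots of a probe were averaged, giving 56605 probes. RefSeq accessions named 32994 of them. A probe was tested when at least 4 arrays of 1 group had it well above background, in limma 3.58.1 (R 4.3.3; lmFit, eBayes, two-sided) on the readable arrays of the groups compared, and called at a BH adjusted p under 0.05 over all probes and at least 1.5-fold. The number of arrays limits the precision. A gene is given by its tested probe with the highest mean level. Named are the members, their receptors and some, but not all, of the called genes of the pathway and marker lists. Also named are the checks of transgenes and drug target, and the 3 genes most like Cxcl10 and Cxcl16. The members and lists were chosen with earlier results of these data known. The fit was tested on simulated arrays. Tissues of a mouse were compared unpaired, and the mouse as a block was an alternative, since both tissues come from 1 animal. After removal of group means the r between the tissues of a mouse ran from -0.47 to 0.45 over 22 mice, with a median of 0.05 and 10 mice over 0.1. Permutation tests of relations used 1e+05 draws. Protein sequences were not used here, and some genes of the lists are not reported here.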

Additional observations from a re-analysis of the deposited data

Results flagged for a closer look

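Of 37 combinations of a member and a group with 4 to 10 arrays, 3 held an array that lay far from the others of its group relative to the group's range, and chance gives about 1 in 20. All 3 were in APP/PS1 MSX-3 mice. Cxcl12 stood at 1.16 in the cortex of mouse 281, with the nearest array at 1.98. Cxcl14 stood at 3.48 in the hippocampus of mouse 293, with the nearest array at 3.11. Cx3cl1 stood at 6.42 in the cortex of mouse 267, with the nearest array at 6.06. No comparison of genotype or agent was called for these genes, with these arrays or without them.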

How the results depend on the processing

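For the members, 1855 differences were recomputed under alternatives, of which 1819 stayed on their side of the threshold, 22 lost a call, 11 gained one and 3 reversed. No member was called for MSX-3 against H2O or for the interaction of genotype and agent under any alternative. The slide as a random block was chosen after the data were seen. With all 48 arrays the number of members called was 0 in both cortical comparisons of genotypes and between tissues, and the differences of Cxcl16 in the cortex on MSX-3 (-0.29) and of Cx3cl1 between tissues (-0.4) reversed. On the second probe the tissue difference of Cxcl12 reversed (-1.26). With normexp the number of members called was 1 in both cortical comparisons of genotypes, 1 between tissues and 1 for the cortical minus the hippocampal genotype effect under MSX-3. With the slide as a block it was 1 in the cortex on H2O and 0 in the hippocampus on either agent. With the scan day as a block it was 0 in the hippocampus on H2O. Within the first scan day it was 0 in the hippocampus on either agent and between tissues, and within the second 0 in the hippocampus on MSX-3. Without a filter on dim probes all 8 members were tested in every comparison. Without a minimum fold 4 were called between tissues. Leaving out 1 mouse at a time gave 1 to 2 between tissues (1 without mouse 318, 56 or 71) and 0 to 1 (1 without mouse 49) for the cortical minus the hippocampal effect under MSX-3. The Cxcl10 difference then ran from 4.37 to 5.16 in the cortex and 2.36 to 2.73 in the hippocampus on H2O, and from 3.75 to 4.85 and 1.51 to 1.74 on MSX-3, always called. That of Cxcl16 in the cortex ran from 0.83 to 0.99 on H2O and 0.72 to 0.85 on MSX-3, always called. With the mouse as a replicate block the difference of Cxcl10 between tissues was -1.89 and not called (adjusted p = 0.0736), and that of Cxcl12 was 0.62 and called (adjusted p = 0.0135). The cause of these changes was not tested. Models of genotype with the slide as a block in the cortex on MSX-3, where no slide held both genotypes, could not be fitted. Nor could models within the second scan day in 8 comparisons. Signal near background limits Cxcl10 in the WT cortex, Cxcl1, Cxcl9 and Cxcl13.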

Other observations

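Genes that lie within 100 kb of Cxcl10 on the RefSeq map were looked up after the values of Cxcl10 had been seen. They are Ppef2, Naaa, Sdad1, Cxcl9, Art3, Nup54 and Scarb2. In the 4 comparisons of genotypes none of those that could be tested was called, and their log2 differences lay between -0.11 and 0.16, while Cxcl10 was called in all 4.

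The transcripts of App and of Adora2a, the gene of the MSX-3 target, were called in no comparison of genotype or agent in limma. On the 2 arrays whose grid was not found, Cxcl10 read -1.13 in the cortex of WT H2O mouse 310 and -0.43 in that of WT MSX-3 mouse 298, and neither spot was well above background.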
